A study of Mus musculus with 4 samples.

Results

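The genes described here encode the proteasome and the factors that assemble it. They were chosen by symbol: genes starting with Psma, Psmb, Psmc, Psmd, Psme or Psmg with at least 100 UMIs over the study, leaving out a few named symbols and pseudogenes. Of 45 symbols that fitted, 43 passed that minimum, out of 55450 gene identifiers in the matrices. The lowest gene inside the limit was Psme2 with 2521 UMIs, and the 2 outside it were Psme2b with 42 and Psmb11 with 28.

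Dissociated mouse testis was profiled by droplet single-cell RNA sequencing in 4 libraries, 2 labelled HFD (high-fat diet) and 2 labelled ND (normal diet). The labels name the diet and the tissue but give no strain, age or length of feeding, and they do not say that each library came from a separate animal, so p-values measure only the spread between these libraries. The matrices held 13561 and 14368 barcodes in the HFD libraries and 15290 and 14618 in the ND libraries, with 143748262 to 154221188 UMIs each. Any pair of libraries shared between 42 and 65 cell barcodes. After filters, 13122, 13502, 14468 and 13825 cells remained in HFD 1, HFD 2, ND 1 and ND 2.

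The proteasome is the cell's main machine for degrading proteins tagged with ubiquitin. Its 20S core is a stack of alpha rings (Psma genes) and beta rings (Psmb genes), and the beta rings hold the proteolytic sites. The 19S cap, made of a ring of ATPases (Psmc) and of other subunits (Psmd), recognises and unfolds the tagged protein. Other caps, the activators encoded by Psme genes, open the core without the ubiquitin system, and chaperones (Psmg1, Psmg3 and Psmg4 for the core, Psmd5, Psmd9 and Psmd10 for the ATPase ring) help to build the particle. The testis has its own form of the core, in which Psma8 (alpha4s) takes the place of its paralog Psma7 (alpha4) in meiotic cells, and spermatids use the activator Psme4 (PA200) in the degradation of acetylated histones.

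Cells were clustered without the proteasome genes and without the other ubiquitin-system genes listed below, and clusters were named from marker lists. This gave 6 germ-cell classes (spermatogonia-like, early-spermatocyte-like, pachytene-like, late-spermatocyte-like, round-spermatid-like and elongating-spermatid-like) and 5 somatic classes (Sertoli-like, Leydig-like, macrophage-like, lymphocyte-like and fibroblast-like). Between 4817 and 5384 cells of a library stayed unnamed. Most of the early-spermatocyte-like class is 1 cluster, numbered 5, whose score was 1.17 for early and 1.01 for pachytene spermatocyte markers. Leading genes of the late-spermatocyte-like cluster were Cdk1 and Aurkb, but its scores were close, 0.952 for late and 0.898 for pachytene spermatocyte markers. A small cluster of the Leydig-like class was led by Malat1, Meg3 and Neat1. Levels by class are in CPM, UMIs of the gene scaled to the same total UMIs for every class and library, and they are given as a mean ± SD over the 4 libraries and as a description with no test. The reads come from the 3' end of transcripts, so levels were not scaled by gene length.

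Most of the proteasome genes had lower relative levels in later germ-cell classes. The mean level was highest in the spermatogonia-like class for 17 of the 43 genes and in the early-spermatocyte-like class for 13. Those 13 were Psma2, Psma3, Psma8, Psmb4, Psmb6, Psmb7, Psmc4, Psmd6, Psmd9, Psmd12, Psmd13, Psmg1 and Psmg3. For many of the 17 and of the 13, such as Psmd1, Psma5, Psma2 and Psmb4, the highest class overlapped the next one. The spermatogonia-like class was also the smallest, with 49 to 68 cells per library. How often each class was the highest over all genes was not counted. Of 41 genes with a mean of at least 5 CPM over the early-spermatocyte-like and elongating-spermatid-like classes, 37 (90.2%) were higher in every library of the former than in any of the latter. Among all 10519 genes at that level the same held for 64.3%, and the reverse held for 30.7%. The median log2 ratio of early-spermatocyte-like over elongating-spermatid-like levels was 2.49 for the 41 genes and 1.28 for all genes at that level, on the log2(CPM + 1) scale.

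**Figure D1:**
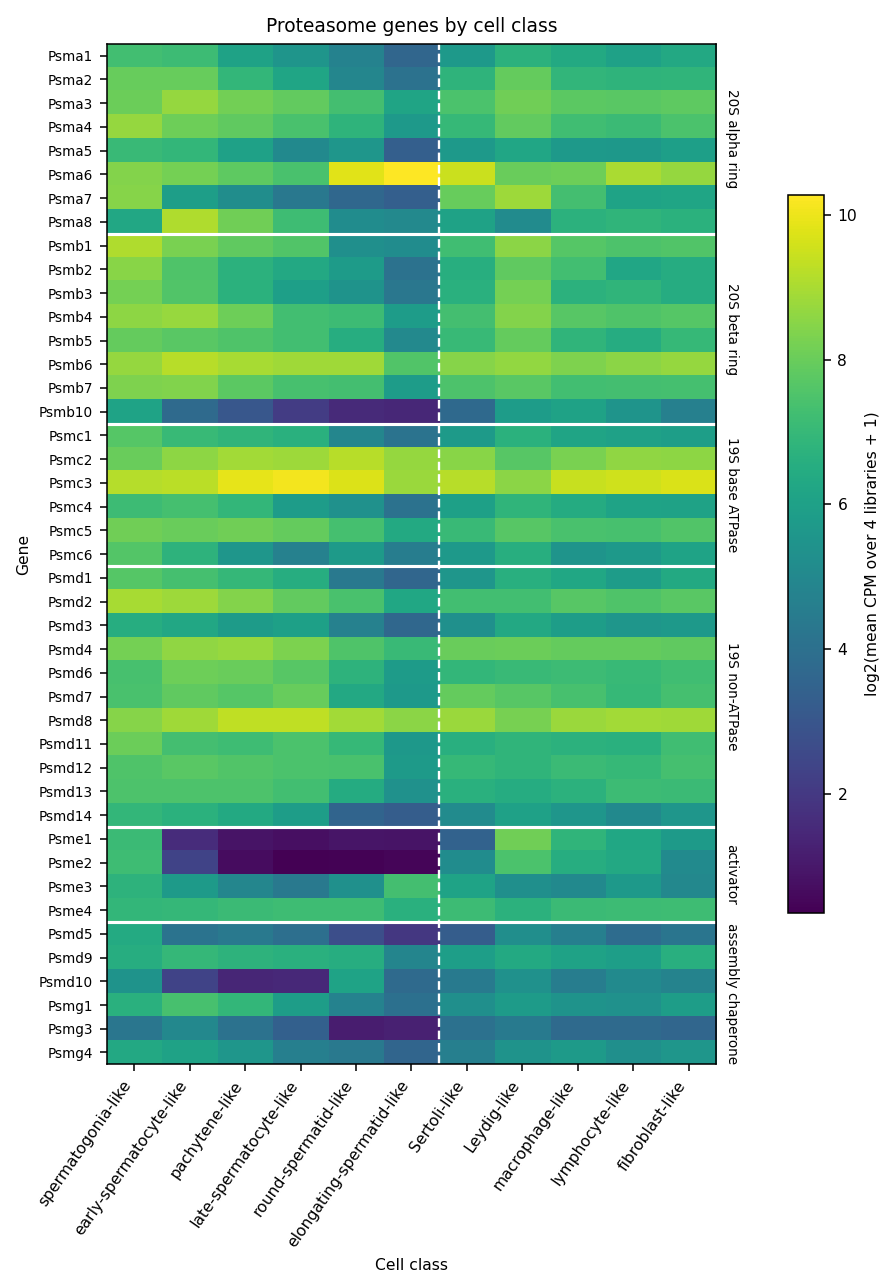
Mean level of each of the 43 genes (rows, grouped by role) in the 11 cell classes (columns; germ cells left of the dashed line), as log2(mean CPM over 4 libraries + 1) by colour. Most rows darken from left to right across the germ cells, while Psma6 is brightest in spermatids, and Psme1 and Psme2 are low in every germ-cell class but the spermatogonia-like one.

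The 7 constitutive beta subunits, Psmb1 to Psmb7, followed this course. They form the catalytic rings, and Psmb5, Psmb6 and Psmb7 carry the active sites. Their summed level was 2674, 2389, 2560 and 2634 CPM in the spermatogonia-like cells of HFD 1, HFD 2, ND 1 and ND 2, and 418, 426, 385 and 387 CPM in the elongating-spermatid-like cells in the same order. No library of one class came near any library of the other. The mean sum was 2244 ± 20.9 CPM in early-spermatocyte-like, 1600.2 ± 33.8 in pachytene-like, 1265 ± 16.3 in late-spermatocyte-like and 995 ± 8.01 in round-spermatid-like cells. The early-spermatocyte-like sum was 5.57 ± 0.323 times the elongating-spermatid-like one. Each step in that order lay outside the spread of the libraries. These are shares of the UMIs of a class, and counts per cell had another course. The 7 genes gave a mean of 14.6 UMIs per cell in spermatogonia-like and 28.4 in early-spermatocyte-like cells. Pachytene- and late-spermatocyte-like cells had 38.7 and 39.3 UMIs per cell, and round- and elongating-spermatid-like cells 14.6 and 3.13. Among somatic cells the Leydig-like class stood apart with 2097 ± 44.0 CPM, against means between 1166 and 1271 in the other 4. In sum, 24 markers of early and pachytene spermatocytes had a mean of 1620 CPM in Leydig-like cells and means of 3169 to 4522 CPM in the other 4. The part of germ-cell RNA in these somatic levels was not tested. Psmb3 was 1 of 4 genes whose highest class was the Leydig-like one, at 292 ± 10.5 CPM, a level that overlapped the 292 ± 23.5 of spermatogonia-like cells.

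The other parts of the particle differed by other amounts between the early-spermatocyte-like and elongating-spermatid-like classes. The alpha ring without Psma6 and Psma8 was 7.55 ± 0.569 times higher in the former, the largest of these ratios. With Psma6 counted in, the ratio of the alpha ring without Psma8 was only 1.11 ± 0.0420. The activators had a ratio of 0.705 ± 0.0261, lower in the former. The assembly chaperones were 5.72 ± 0.463 times higher in the former, the 11 non-ATPase subunits of the 19S cap 3.10 ± 0.111 times and the 6 ATPases 1.66 ± 0.0520 times. The 19S ATPases did not peak in the first germ cells: their sum was 1647 ± 91.0 CPM in spermatogonia-like, 1981 ± 32.8 in pachytene-like and 1972 ± 21.4 in late-spermatocyte-like cells. One gene supplied much of it. Psmc3, the ATPase Rpt5, reached 1125, 1119.7, 1099.7 and 1049 CPM in late-spermatocyte-like cells of HFD 1, HFD 2, ND 1 and ND 2, against 577 ± 37.1 in spermatogonia-like and 439 ± 41.0 in elongating-spermatid-like cells.

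Several genes had their highest level later in the lineage. Psmc3, Psmd7, Psmd8 and Psme4 peaked in the late-spermatocyte-like class, Psmd4 in the pachytene-like, Psmc2 and Psmd10 in the round-spermatid-like, and Psma6 and Psme3 in the elongating-spermatid-like class. For Psmd7 and Psmd8, both 19S subunits, and for Psme4 the highest class overlapped the next one. Psmd4, the ubiquitin receptor Rpn10, reached 427 ± 3.63 CPM in pachytene-like cells, against 394 ± 12.4 CPM in the early-spermatocyte-like class. Psmc2, the ATPase Rpt1, reached 588 ± 17.0 CPM in round-spermatid-like cells and 412 ± 17.0 in elongating-spermatid-like cells.

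Psma8 was the gene with the largest ratio of germ-cell to somatic level, 2.21 over the means of the 6 and 5 classes. It stood at 557, 559.7, 547.5 and 536 CPM in the early-spermatocyte-like cells of HFD 1, HFD 2, ND 1 and ND 2. It measured 276 ± 3.24 CPM in pachytene-like and 145 ± 5.16 in late-spermatocyte-like cells, and 35.3 ± 4.21 and 31.8 ± 3.93 in round- and elongating-spermatid-like cells. The libraries of the spermatocyte classes did not overlap from one class to the next. Within the early-spermatocyte-like class, cluster 5 held 12812 of the 12913 Psma8 UMIs at a mean of 568 CPM. The 2 small clusters of that class, 12.1 and 12.2, with 121 and 174 cells, had means of 139 and 89.0 CPM. At a finer clustering (Leiden resolution 2) the class was drawn differently and its Psma8 level was 307 CPM.

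Outside spermatocytes the level of Psma8 has to be read against free RNA in the droplets. Somatic cells, which should lack this gene, had means between 34.4 CPM (Leydig-like) and 114 CPM (lymphocyte-like). The summed level of 24 early and pachytene spermatocyte markers was 10322 to 10539 CPM in early-spermatocyte-like cells and 1337 to 5186 CPM in the somatic classes, with at most 1 of the 24 at 0 in a class. For each 100 CPM of those markers, Psma8 measured 5.19 to 5.35 CPM in early-spermatocyte-like cells and 1.68 to 3.32 CPM in somatic cells. Spermatogonia-like cells had 78.0 ± 6.61 CPM of Psma8, or 1.70 to 1.97 CPM per 100 CPM of the markers. In CPM the spermatogonia-like and spermatid-like levels of Psma8 lay within or below the range of the somatic means, and they are not read as expression. The mean of cluster 12.2 also lay within that range. Germ cells may carry the markers themselves, and the part of free RNA in these levels was not tested. Pachytene-like cells had 3.62 to 3.67 CPM per 100 CPM of the markers, above the somatic range. Late-spermatocyte-like cells had 2.02 to 2.22, within that range, though their mean level was above each somatic mean. The same markers summed to 6617 to 6789 CPM in late-spermatocyte-like cells, above every somatic class. Part of that sum may be RNA of these cells, so the ratio alone cannot decide between their own Psma8 and free RNA. As counts, late-spermatocyte-like cells held 10812 Psma8 UMIs, in 493 to 774 cells per library. The somatic classes held 116 to 435 each, in 75 to 417 cells per library. The part of free RNA in these counts was not tested.

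Psma7, which fills the same position of the ring in most tissues, had a different course. Its level was 449, 450.1, 470.4 and 452 CPM in Leydig-like cells of HFD 1, HFD 2, ND 1 and ND 2, and 345.5, 331.5, 348 and 387 CPM in spermatogonia-like cells. It was 59.7 ± 2.99 CPM in early-spermatocyte-like cells and 9.34 ± 0.692 in elongating-spermatid-like cells, where no library came near the spermatogonia-like ones. Sertoli-like cells had 247 ± 33.2 CPM and macrophage-like cells 157 ± 39.3. Psma8 made up 18.1% ± 1.88 of the UMIs of the pair in spermatogonia-like cells, against 90.2% ± 0.606 in the early-spermatocyte-like class. The early-spermatocyte-like share rests mostly on cluster 5, which scored 1.17 for early and 1.01 for pachytene spermatocyte markers. The share stayed at 88.5% ± 0.930 and 88.4% ± 0.650 in pachytene- and late-spermatocyte-like cells, though Psma8 in the latter was left undecided above. It was 7.03% ± 1.96 in Leydig-like (15.7% with doublets kept, 11.2% at the finer clustering) and 21.5% ± 3.53 in Sertoli-like cells. In the 3 classes with few cells, macrophage-, lymphocyte- and fibroblast-like, it ranged from 31.6% to 74.5% over libraries. These shares rest on 66 to 199 Psma7 and 116 to 128 Psma8 UMIs per class. Free RNA was not separated out of the somatic shares or of the 18.1% in spermatogonia-like cells.

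**Figure D2:**
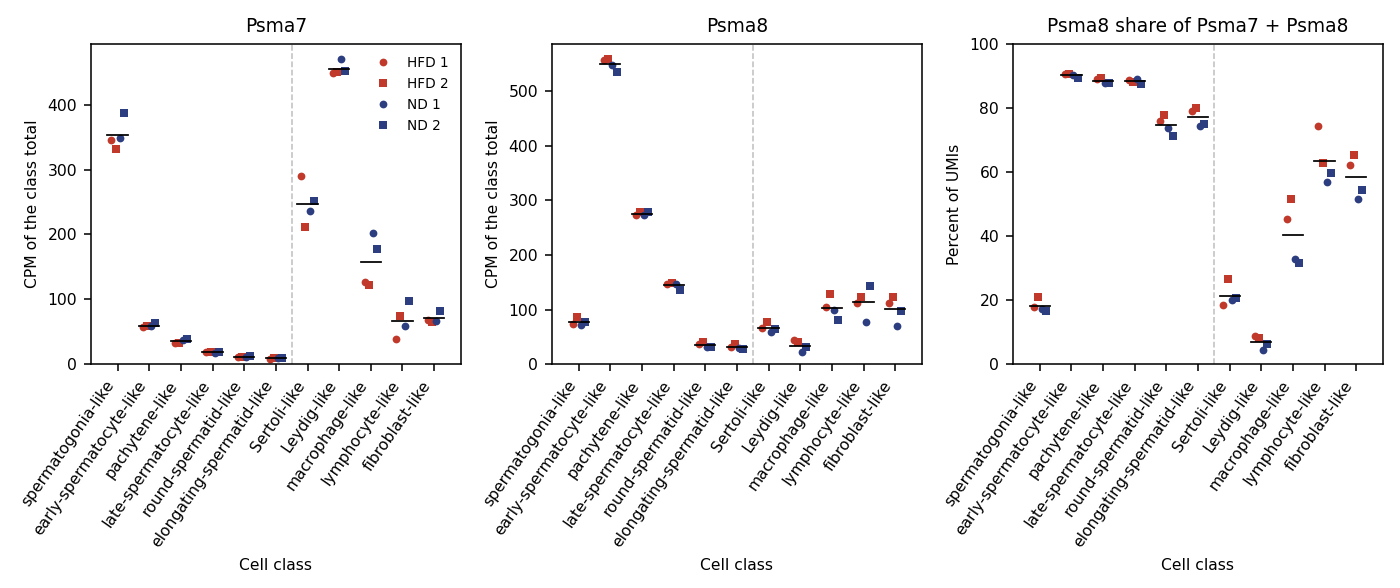
Level of Psma7 and of Psma8 (CPM of the class total) and the share of Psma8 in the UMIs of both (percent) in 11 cell classes, with 1 point per library (red HFD, blue ND) and a bar at the mean of the 4. The mean share is 18.1% in the spermatogonia-like class, where Psma8 is not read as expression, and 90.2% in the early-spermatocyte-like class. Most of the latter class is cluster 5.

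Of the other alpha subunits Psma6 (alpha1) differed from its ring. It was low, like the others, at 172 ± 2.69 CPM in late-spermatocyte-like cells. It stood at 899, 901, 927 and 909 CPM in round-spermatid-like and at 1231, 1238, 1236 and 1232 CPM in elongating-spermatid-like cells of HFD 1, HFD 2, ND 1 and ND 2. No library of either spermatid class overlapped the earlier germ-cell classes. The remaining 6 alpha subunits without Psma8 summed to 382 ± 5.96 and 168 ± 10.3 CPM in those classes. Sertoli-like cells also had 714 ± 33.6 CPM of Psma6, and in them the 12 elongating spermatid markers, none of which was at 0, summed to 79205 to 94455 CPM, against 149665 to 159572 in elongating-spermatid-like cells. The part of spermatid RNA in the Sertoli-like level was not tested. No near-identical copy of the 3' end of Psma6 was found among the annotated transcripts.

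Psmb10 and the paired activators Psme1 and Psme2 were high in spermatogonia-like and some somatic cells and low in every later germ-cell class. Psmb10 is an interferon-inducible catalytic subunit of the immunoproteasome, and Psme1 and Psme2 (PA28 alpha and beta) form a ring that caps the core and takes part in making peptides for antigen presentation. Psme1 stood at 268, 272, 295 and 268 CPM in Leydig-like cells of HFD 1, HFD 2, ND 1 and ND 2, and Psme2 at 167, 185, 186 and 159 CPM. In pachytene-like cells the same genes had 0.847 ± 0.114 and 0.612 ± 0.0855 CPM. Both were also present in spermatogonia-like cells, at 136 ± 39.6 and 145 ± 32.9 CPM, and in macrophage-like cells, at 115 ± 20.4 and 91.3 ± 35.0 CPM. Early-spermatocyte-like cells had only 49 UMIs of Psme1 and 94 of Psme2 in all. Sertoli-like cells were low among the somatic classes, with 10.2 ± 1.79 and 35.1 ± 4.88 CPM. The 3' end of Psme2 is nearly identical to that of Psme2b (99.0% over 300 bases), so its counts are uncertain. Near-identical 3' ends were also found for Psma5, Psmb3 and Psmb5 (pseudogene copies) and Psmd1, and 20 of the 43 genes overlap another annotated gene, 9 of them on the same strand.

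Psmb10 measured 77.8, 61.9, 61.3 and 71.0 CPM in spermatogonia-like cells and 48.4, 68.8, 58.9 and 50.4 CPM in Leydig-like cells of HFD 1, HFD 2, ND 1 and ND 2. These classes overlapped. It was 12.7 ± 0.675 CPM in the early-spermatocyte-like class, and the elongating-spermatid-like class had 1.72 ± 0.260 CPM. Psme1, Psme2, Psmb10 and Psma7 were the genes with the lowest ratio of germ-cell to somatic level, with somatic means 4.51, 3.29, 2.57 and 2.45 times the germ-cell means. Psmd10 and Psmb3 followed, at 1.32 and 1.19 times. At the other end, after Psma8, came Psmg1 at 1.72, Psmd2 at 1.63, Psme3 at 1.54, Psmd1 at 1.43 and Psmd14 at 1.43 times more in germ cells. Free germ-cell RNA was not separated out of the somatic means in these ratios. Psmg1, a chaperone of the alpha ring, was at 165 ± 5.85 CPM in early-spermatocyte-like cells, and Psmd14, the deubiquitinase of the 19S lid, was at 101 ± 5.46 CPM.

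The promoters of these 4 genes are shown because they have the highest ratios of somatic to germ-cell level in the set. Each window runs from 250 bases before to 50 bases after a RefSeq transcript start on GRCm38.p6, the RefSeq release of the mm10 build named in the submitters' processing notes, and is written 5' to 3' on the gene's strand. They lie at chr2:180042415-180042714 (minus strand) for Psma7, chr8:105938343-105938642 (minus) for Psmb10, chr14:55578244-55578543 (plus) for Psme1 and chr14:55591052-55591351 (minus) for Psme2. Capitals mark matches, on either strand, to the CCAAT box (CCAAT), to the core of the antioxidant response element (TGACNNNGC) or to the core of the interferon-stimulated response element (GAAA, any 2 bases, GAAA).
Psma7: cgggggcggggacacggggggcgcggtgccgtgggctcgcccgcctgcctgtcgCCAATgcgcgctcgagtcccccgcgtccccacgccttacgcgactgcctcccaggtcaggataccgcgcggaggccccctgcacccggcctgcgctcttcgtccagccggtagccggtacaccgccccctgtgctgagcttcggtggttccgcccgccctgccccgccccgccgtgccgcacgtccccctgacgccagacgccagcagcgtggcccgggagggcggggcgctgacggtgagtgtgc
Psmb10: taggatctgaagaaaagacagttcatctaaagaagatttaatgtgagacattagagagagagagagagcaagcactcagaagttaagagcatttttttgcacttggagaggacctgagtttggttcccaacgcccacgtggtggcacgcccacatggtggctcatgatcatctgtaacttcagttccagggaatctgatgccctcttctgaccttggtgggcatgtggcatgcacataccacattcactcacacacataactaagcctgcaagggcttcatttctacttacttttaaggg
Psme1: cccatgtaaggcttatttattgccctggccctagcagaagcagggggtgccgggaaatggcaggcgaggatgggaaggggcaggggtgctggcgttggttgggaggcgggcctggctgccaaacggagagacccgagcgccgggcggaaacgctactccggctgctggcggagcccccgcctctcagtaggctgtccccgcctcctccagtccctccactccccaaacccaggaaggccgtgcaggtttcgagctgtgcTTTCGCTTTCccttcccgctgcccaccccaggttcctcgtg
Psme2: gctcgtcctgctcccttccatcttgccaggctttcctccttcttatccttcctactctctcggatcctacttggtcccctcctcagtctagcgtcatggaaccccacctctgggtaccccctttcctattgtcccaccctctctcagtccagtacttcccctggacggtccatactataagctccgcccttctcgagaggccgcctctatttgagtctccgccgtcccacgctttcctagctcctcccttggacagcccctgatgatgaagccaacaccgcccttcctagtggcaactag

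Psma7 held 1 CCAAT box, Psme1 held 1 interferon-stimulated response element core, read on the opposite strand, and Psmb10 and Psme2 held none of the 3 motifs. Of the 43 genes, 36 had a window that could be used. The interferon-stimulated core was in 5 of the 36 (13.9%) and in 3.49% of all 27025 promoters of the same length. The antioxidant core, the form bound by Nfe2l1 that drives proteasome genes when proteasomes are inhibited, was in 6 (16.7%) and in 12.4% of all. The CCAAT box was in 12 (33.3%) and in 37.9% of all. These matches are descriptions of letters in a window, not of sites in use.

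Psme3 and Psme4, the activators that work in the nucleus, differed from Psme1 and Psme2. Psme3 (PA28 gamma) had its highest level in elongating-spermatid-like cells, at 149.5, 154, 162 and 166 CPM in HFD 1, HFD 2, ND 1 and ND 2. It was 39.2 ± 1.54 CPM in round-spermatid-like and 19.4 ± 0.335 CPM in late-spermatocyte-like cells. Within the spermatids it was concentrated in 1 cluster, numbered 9, with a mean of 225 CPM and 9732 of the class's 12442 UMIs. That cluster scored 2.35 for elongating and 1.70 for round spermatid markers, with 0 of the elongating markers among its top 10 genes. The other elongating-spermatid-like clusters ranged from 13.2 to 135 CPM. Round-spermatid-like clusters ranged from 20.8 to 92.1 CPM. Psme4 was nearly level over the classes, between 100.4 ± 9.03 CPM in elongating-spermatid-like and 145 ± 4.26 CPM in late-spermatocyte-like cells.

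Psmd10 (gankyrin), the only X-linked gene of the set, had a course of its own. As background, the X chromosome is silenced in pachytene spermatocytes. Psmd10 stood at 66.6, 66.1, 72.1 and 67.4 CPM in round-spermatid-like cells of HFD 1, HFD 2, ND 1 and ND 2 and at 1.74, 1.64, 1.71 and 1.65 CPM in pachytene-like cells. Spermatogonia-like cells had 42.6 ± 14.2 CPM and elongating-spermatid-like cells 12.7 ± 0.882. In the early-spermatocyte-like class the level was 3.24 CPM in cluster 5 and 25.5 and 21.6 CPM in clusters 12.1 and 12.2, on 74, 10 and 12 UMIs. The other chaperones of the ATPase ring, Psmd5 and Psmd9, are autosomal, and in pachytene-like cells they had 19.9 ± 1.17 CPM and a mean of 107 CPM.

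**Figure D3:**
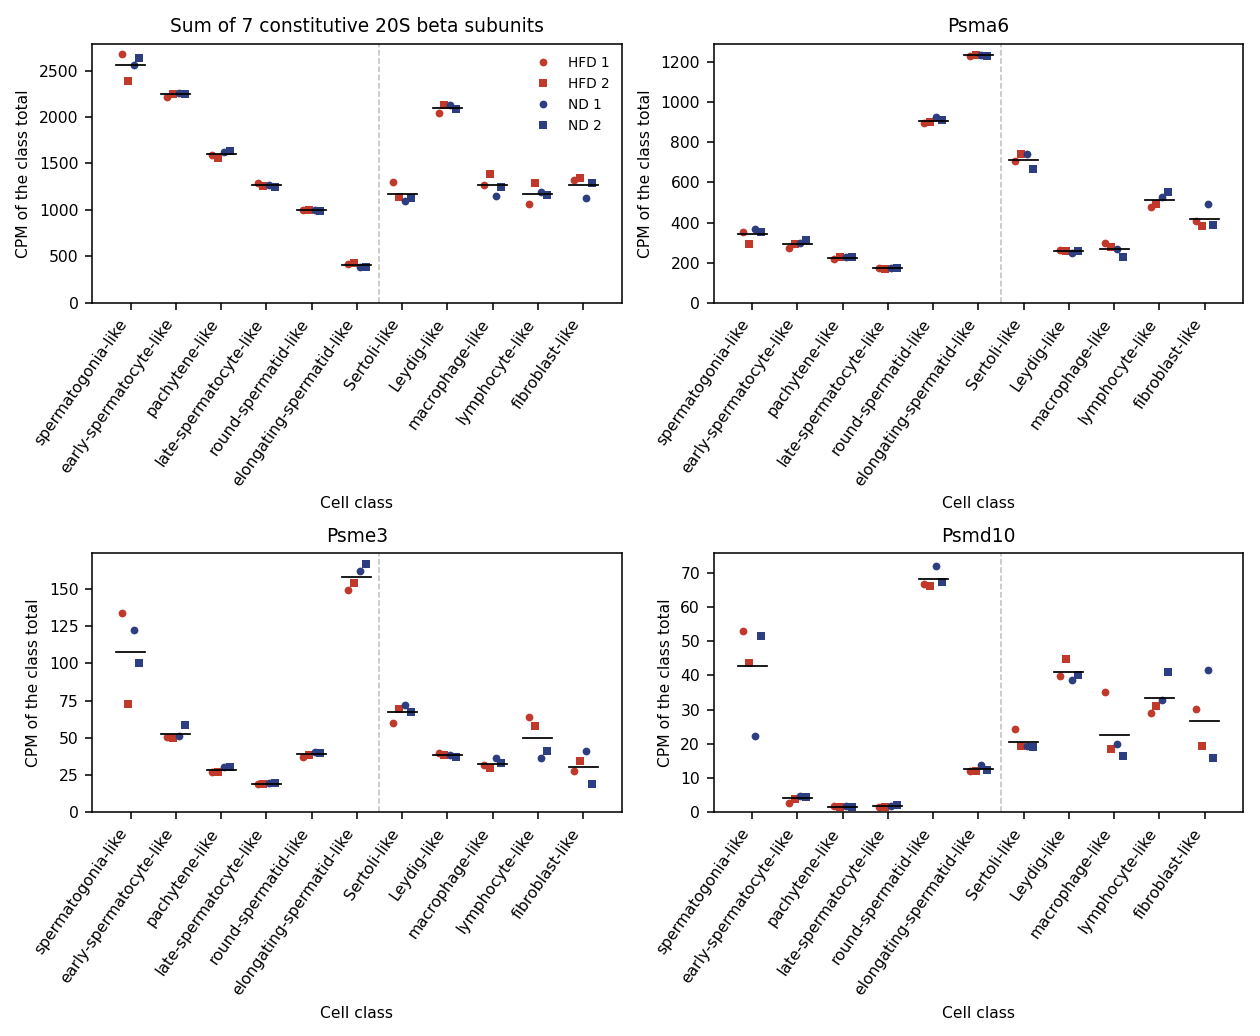
Summed level of the 7 constitutive beta subunits and levels of Psma6, Psme3 and Psmd10 (CPM of the class total, linear axes from 0) by cell class, with 1 point per library (red HFD, blue ND) and a bar at the mean. The beta subunits go from 2564 to 404 CPM over the germ cells, whereas Psma6 and Psme3 are highest in elongating-spermatid-like cells, and Psmd10 is near 0 in the spermatocyte classes and highest in round-spermatid-like cells.

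The diets were compared first over all kept cells of a library, as the sum of the testis. With edgeR's quasi-likelihood test and Benjamini-Hochberg adjustment over all 25470 genes tested, 22 of the 43 genes passed a threshold of 0.05, 16 of them higher in HFD and 6 lower. Of all genes tested, 34.3% passed, 15.3% higher and 18.9% lower, so the share of the proteasome genes that were higher lies above the background, and the share that were lower lies near it. The median log2 change was 0.07 for the 43 genes and -0.02 for all genes. CPM values in the diet comparisons are on another scale than the class levels above: they are relative to the UMIs of the genes tested and scaled by edgeR's TMM factors. In a sum over a tissue, fewer cells of a type and less RNA per cell cannot be told apart.

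The genes higher in HFD came from the core, the cap and the chaperones. The 8 largest were Psmd7, Psma8, Psmd14, Psmd5, Psmd1, Psmc3, Psmb1 and Psmc1. Psmd7, a scaffold of the 19S lid, measured 160 and 166 CPM in the HFD libraries and 139 and 137 in the ND libraries (log2 change 0.24, SE 0.0391, adjusted p 0.00035, edgeR). Psma8 measured 146 and 154 CPM against 127 and 129 (log2 change 0.23, SE 0.0410, adjusted p 0.000659, edgeR). Psmd14 measured 43.7 and 44.8 CPM against 37.2 and 39.0 (log2 change 0.22). Both HFD libraries lay above both ND libraries for each of the 3. The other 5 had log2 changes between 0.15 and 0.17, also without overlap: 0.17 for Psmd5, a chaperone of the ATPase ring, 0.17 for Psmd1, the largest scaffold of the base, 0.16 for Psmc3, 0.16 for Psmb1 and 0.15 for Psmc1. The reads of Psmd1 may be shared with Gm21972, an annotated transcript identical over 231 bases of its 3' end.

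The 6 genes lower in HFD were Psme2, Psme1, Psmd10, Psme3, Psma6 and Psma7. Psme1 measured 5.08 and 4.92 CPM in the HFD libraries and 7.002 and 6.56 in the ND libraries (log2 change -0.44, SE 0.0711, adjusted p 0.0003, edgeR). Psme2 measured 3.60 and 3.64 against 5.08 and 4.75 CPM (log2 change -0.44). Psmd10 measured 25.2 and 23.3 against 31.9 and 30.0 CPM (log2 change -0.35, SE 0.0507, adjusted p 0.000125, edgeR). Psme3 and Psma6 fell by 0.21 and 0.19 on the log2 scale, and Psma7 by 0.16. In each of the 6 both HFD libraries lay below both ND libraries, a separation in either direction that held for 67.4% of all genes tested. Psmb10 (log2 change -0.05, adjusted p 0.662, edgeR) and Psme4 (0.10, adjusted p 0.0602, edgeR) did not pass. Without HFD 2, 11 of the 43 genes passed (5098 of all 26263), and with no filter on low counts 14 did (6016 of 39423). Of the genes named, Psmd5 was lost without HFD 1, HFD 2 or ND 1 (log2 change 0.10 without ND 1), with no filter and with DESeq2 (adjusted p 0.0562), Psmc1 and Psmd1 without HFD 2 or ND 1, Psmc1 also with no filter, and Psma7 without HFD 2 or ND 2.

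The make-up of the libraries moved with these values. Late-spermatocyte-like cells gave 16.0% of the UMIs in HFD and 11.1% in ND (means of 2 libraries), and pachytene-like cells gave 24.2% and 19.8%. Round-spermatid-like cells gave 25.9% and 33.7%, and Leydig-like cells 1.13% and 1.68%. Early-spermatocyte-like cells gave 4.04% and 4.55%, and spermatogonia-like cells 0.211% and 0.251%. Most of the 16 higher genes peaked in these 2 classes, which were a small part of the UMIs and had smaller shares in HFD. A gene's highest class alone does not give the direction of its change from class shares. The 6 lower genes had their highest mean level in spermatid-like or Leydig-like classes. To give this as numbers, each gene's class levels were held at their mean over the 4 libraries while the class shares varied by library, and then the reverse. The unnamed cells, 13.3% of the UMIs in HFD and 11.8% in ND, counted as 1 more class here. Shifts in the make-up of the unnamed cells thus count as levels, and the test at equal class shares below leaves these cells out. With only the shares varying, the log2 change ran from -0.40 to 0.17 with a median of 0.06. Above 0 were 34 of the 43 genes, among them each of the 16 higher ones. With only the levels varying, the log2 change ran from -0.11 to 0.11 with a median of -0.0029, and 21 genes were above 0 and 22 below.

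With only the shares varying, the log2 change was -0.40 for Psme1, -0.38 for Psme2, -0.27 for Psmd10, -0.18 for Psma6 and 0.15 for Psma8. With only the levels varying, the same genes were at -0.05, -0.07, -0.09, -0.02 and 0.07, in that order. Psmc3 had the larger value from levels, 0.11 against 0.05, and Psme3 was at -0.11 on both counts. When the named classes were given the same shares in every library and tested with limma on log2(CPM + 1), 0 of the 43 genes passed, and 108 of all 25470 did. At the class shares as found, the same limma test passed 14 of them, all among the 22, and 8250 of all 25470 genes, so both counts lie near the share over all genes. That second test was added after the data had been seen.

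**Figure D4:**
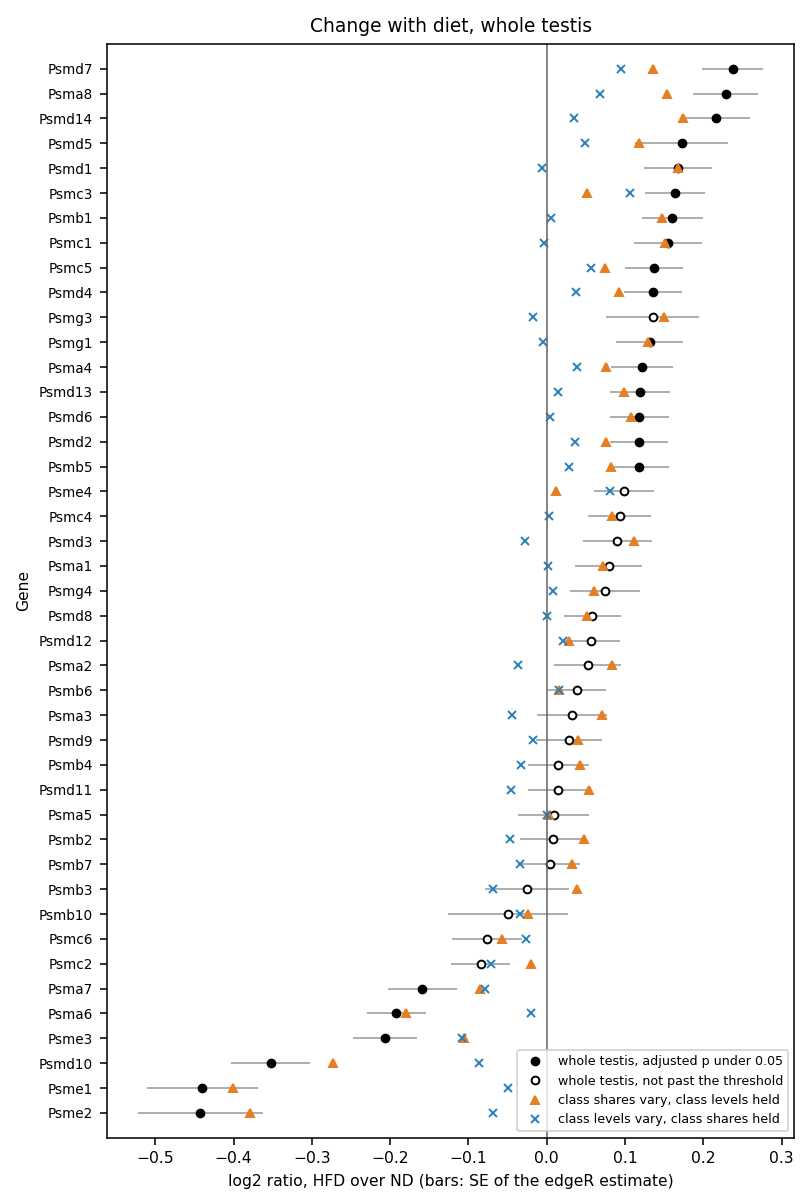
Log2 ratio of HFD over ND for each of the 43 genes in the whole testis (circles, filled where the edgeR adjusted p is under 0.05; bars, SE), beside the ratio when only class shares vary (triangles) or only class levels vary (crosses). Triangles lie on the same side of 0 as the circles for each of the 22 filled genes, while the crosses lie between -0.11 and 0.11.

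Within classes few genes passed. In elongating-spermatid-like cells 3 of 43 did (edgeR quasi-likelihood test, adjusted over 16003 genes), against 4.66% of all genes tested. Psmc3 was higher in HFD, at 464 and 467 CPM against 421 and 402 (log2 change 0.18, adjusted p 0.00954, edgeR), and so was Psmd2, a scaffold of the 19S base, at 78.5 and 81.7 CPM against 68.0 and 70.8 (log2 change 0.21, adjusted p 0.0274, edgeR). Psme3 was lower, at 149 and 150.0 TMM-scaled CPM against 165 and 170.0 (log2 change -0.16, adjusted p 0.0392, edgeR). Its CPM of the class total, given above, were 149.5 and 154 against 162 and 166. Most of its UMIs in the class lay in cluster 9, and the part of that cluster's share in the change was not tested. No HFD library overlapped an ND library for these 3 genes, which was also so for 49.1% of all genes tested in the class. In this class the 24 spermatocyte markers summed to 1577 and 1651 CPM in HFD and to 1421 and 1462 CPM in ND. The part of free spermatocyte RNA in these changes was not tested. Without HFD 2, 0 of the 43 passed in this class (77 of all 16687 genes), without HFD 1, 1 did (473 of 16633), and without ND 1, 6 did (1057 of 16610).

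Psma8 was the only gene of the set past the threshold in round-spermatid-like cells and in Leydig-like cells, against 1.69% and 5.1% of all genes. In round-spermatid-like cells it measured 36.5 and 40.1 CPM in HFD and 32.8 and 31.7 in ND (log2 change 0.25, adjusted p 0.0456, edgeR). In Leydig-like cells it measured 43.9 and 40.6 CPM against 23.3 and 31.4 (log2 change 0.62, adjusted p 0.0382, edgeR), on 72, 62, 50 and 70 UMIs. Neither level is read above as expression. In the Leydig-like cells the 24 spermatocyte markers summed to 1920 and 1742 CPM in HFD and 1337 and 1481 CPM in ND, and in the round-spermatid-like cells to 3743 and 3758 against 3579 and 3659. Both results were lost without HFD 1. The Leydig-like one was also lost without ND 1, and the round-spermatid-like one without HFD 2. In round-spermatid-like cells 0 of all 20055 genes passed without HFD 1 and 1 of 20006 without HFD 2. Without ND 1, 9 genes of the set passed there, with 2327 of all 19649, and without ND 2, 3 did, with 943 of 19663. The part of free spermatocyte RNA in these changes was not tested.

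Psmb10 was lower in the macrophage-like cells of HFD, with 5 and 16 UMIs against 33 and 29, or 17.6 and 64.6 TMM-scaled CPM against 125 and 87.9 (log2 change -1.39, SE 0.372, adjusted p 0.013, edgeR). As CPM of the class total, the values were 15.9 and 58.9 against 109.6 and 79.3. It was 1 of 40 genes of the set tested there, against 1.74% of all genes. The HFD and ND libraries did not overlap, as for 35.6% of all genes tested, but HFD 1 was far below HFD 2, and the result was lost without HFD 1, without ND 1 and with DESeq2. The log2 change ranged from -2.56 to -0.71 with 1 library left out. The class held 83 to 110 cells per library. The 11 macrophage markers summed to 11362 and 12526 CPM in HFD and 15607 and 13560 CPM in ND.

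No gene of the set passed edgeR's adjusted threshold in the other 6 classes tested. At an unadjusted p under 0.05 there were 3 in early-spermatocyte-like, 4 in pachytene-like, 2 in late-spermatocyte-like, 4 in Sertoli-like, 1 in lymphocyte-like and 1 in fibroblast-like cells. Over all genes tested, the share with such a p was 12.4%, 17.6%, 10.8%, 8.03%, 5.21% and 9.4% in the same order of classes. DESeq2 passed 0 of the set in each. Of all genes tested, the edgeR test passed 1.2%, 2.35%, 0.189%, 0.097%, 0.119% and 0.0% in those classes, in the same order. Median log2 changes of the set lay between -0.01 and 0.11 there. Without ND 1, 1 gene of the set passed in early-spermatocyte-like cells (418 of all 13728), 4 in pachytene-like (1857 of 17565) and 2 in late-spermatocyte-like cells (703 of 15458). Spermatogonia-like cells, with 49 to 68 per library, were not tested.

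Beyond the particle itself, 31 other genes of the ubiquitin system from a list of ubiquitin-activating enzymes, shuttle factors, proteasome-bound enzymes and regulators were examined. In the whole testis 13 of the 31 passed the same edgeR threshold, 5 higher and 8 lower in HFD, beside the 34.3% of all genes. Nploc4, a cofactor of the segregase Vcp, was higher, at 49.5 and 49.3 CPM against 39.8 and 37.2 (log2 change 0.36). Pomp, which guides assembly of the core, and Uchl5, a deubiquitinase of the 19S cap, both rose by 0.21 or 0.20 on the log2 scale, and the ubiquitin fusion gene Rps27a rose by 0.15. Among the decreases were Ubqln2, a shuttle factor, at -0.52, Uba1, the main ubiquitin-activating enzyme, at -0.45, and Nfe2l2, a stress-response factor, at -0.28. The split into class shares and class levels was not made for this list, so the part of class make-up was not separated out of these changes. Without HFD 2, 8 of the list passed in the whole testis. In elongating-spermatid-like cells 4 of 30 passed, 3 higher and 1 lower, against the 4.66% of all genes: Uchl5, Pomp and Rps27a were higher (log2 changes 0.31, 0.29 and 0.22). Rps27a was also higher in round-spermatid-like cells (0.17). No gene of the list passed in the other 8 classes. In those other than the Leydig-like and macrophage-like classes, 2 to 5 genes of the list had an unadjusted edgeR p under 0.05. The share of all genes with such a p in these classes is given above. DESeq2 passed 4 over all classes, against 5 with edgeR, and edgeR passed 27 without ND 1, where more of all genes also passed in the germ-cell classes after spermatogonia.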

How the data were processed

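UMI counts per gene and cell were deposited by the authors as 1 sparse matrix for each of the 4 testis libraries, per the file headers. The submitters' processing notes name mm10. The aligner and annotation are not given in the sources used here. Gene positions come from the GENCODE M21 annotation.

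Cells with under 200 genes or over 20% mitochondrial UMIs were left out (13 to 42 per library), as were 421 to 853 doublets per library. Cells were clustered with scanpy 1.11.5 (2000 variable genes, 30 components, Leiden resolution 1) without the genes studied and named from marker lists. UMIs were summed per library over all kept cells and per class with at least 50 cells in every library; spermatogonia-like cells had too few in 1 library. Sums were tested with edgeR 4.0.16 (TMM, quasi-likelihood, Benjamini-Hochberg over all genes tested, threshold 0.05), with DESeq2 1.42.0 and limma 3.58.1 (pseudocount 1 CPM) as alternatives, in R 4.3.3. The fit was tested on simulated data. Other alternatives were RLE size factors, no filter on low counts, a replicate block, doublets kept, finer clusters, a marker gate on single cells, and each library left out in turn.

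The genes and lists were chosen with earlier results of these data known. Named were Psma7, Psma8, Psmb10 and Psme1 to Psme4; up to 8 called genes per direction and comparison with no overlap between diets; up to 6 genes at either end of the germ-cell to somatic ratio; genes whose highest class was not that of most; and, of the ubiquitin list, up to 4 per direction in the whole testis and 2 per class, with all named where few passed. One gene of that list is counted but not reported by name here. Near-identical 3' ends were searched with blastn 2.17.0 (last 300 bases, at least 98% identity over at least 100 bases).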

Additional observations from a re-analysis of the deposited data

How the results depend on the processing

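The whole-testis count of 22 became 14 (8 higher, 6 lower) with no filter on low counts, 14 (8 higher, 6 lower) with limma on the named classes as found, 0 at equal class shares, and 11 to 21 with 1 library left out. DESeq2 passed 22, of which 21 were shared, beside 6699 of all 25470 genes. At equal class shares the log2 change was -0.0014 for Psmb1, -0.0091 for Psmc1 and -0.0185 for Psmd1. Of 242 values of 22 named results, 177 kept direction and side of the threshold, 57 kept direction only and lost the call, 3 gained one, 2 moved and those 3 reversed; the cause was not tested.

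Within classes, the Leydig-like count of 1 was 0 with DESeq2, finer clusters, the marker gate, no filter or the replicate block. It was 2 with RLE size factors (585 of all 11865 genes) and 3 with doublets kept (1529 of 13238). The round-spermatid-like count of 1 was 0 with DESeq2, finer clusters, RLE, doublets kept, the gate or no filter, and 0 to 9 with 1 library left out. The elongating-spermatid-like count of 3 was 1 with DESeq2, 0 with doublets kept and 0 to 6 with 1 library left out. The macrophage-like count of 1 was 0 with DESeq2 or doublets kept, and 0 to 1 with 1 library left out. In pachytene-like cells the count of 0 became 3 with finer clusters (1656 of all 18430 genes) and 1 with the replicate block (831 of 16624). In late-spermatocyte-like cells the count of 0 became 4 with the gate (715 of all 12944 genes). The ubiquitin list gave 8 to 16 in the whole testis and 1 to 27 over the classes with 1 library left out. With doublets kept no late-spermatocyte-like class was found, so that fit was not run.

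Levels moved by more than 1 SD in these cases. With doublets kept, the Psma8 share in Leydig-like cells was 15.7%, early-spermatocyte-like Psma8 was 539 CPM, the beta fold 5.07, elongating-spermatid-like Psme3 150.2 and Psma6 1220.1 CPM, and Leydig-like Psme1 213 CPM. With finer clusters they were 11.2%, 307 CPM, 4.41, 148, 1273 and 252 CPM, the early-spermatocyte-like share 85.8% and round-spermatid-like Psmd10 64.4 CPM. With the gate, Psma8 was 422, Psme3 140.3 and Psma6 1319 CPM.

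Same-numbered HFD and ND libraries did not deviate together (correlation 0.0381 in the whole testis, and from -0.0317 in Leydig-like to 0.138 in fibroblast-like cells), and nothing in the labels pairs them, so they were treated as unpaired. With the replicate block 23 of the 43 genes and 17 of the ubiquitin list passed in the whole testis, beside 10173 of all 25470. Over the classes 6 of that list passed.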
